A study of Mus musculus with 6 samples.

Results

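Serpinb1a, Klk6, Prr18, Pmp2 and Pdlim2 are 5 of 12614 genes whose transcripts were measured in mouse spinal cord at segment L1, in the lumbar region. They were selected on their own readout, because both arrays from mice with a subcutaneous tumour lay below both arrays from vehicle mice. That contrast is therefore described here without a test. All 7 probe sets annotated to the 5 genes were taken, and all 7 passed the filter on dim probe sets.

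The animals were male mice with severe combined immunodeficiency (SCID), 9 weeks of age at the start and 15 weeks at sampling, 6 weeks after injection. Mice of the neural invasion group (N-inv) received Capan-1, a human pancreatic cancer line, in the sciatic nerve of the left side. SC mice received the same line under the skin, and PBS mice received the vehicle alone. Each group had 2 arrays, and all mice shared the SCID background, so the cord was studied without mature B and T cells of the host. Each array title carries a number of its own, but no label says whether these numbers stand for animals, so p-values measure only the spread between these samples, which may be technical.

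Oligodendrocytes wrap the axons of the central nervous system, and those of spinal white matter differ from those of the forebrain: many of them transcribe Klk6 and Serpinb1a. Klk6 encodes a secreted serine protease of the kallikrein family that cleaves myelin proteins. Serpinb1a encodes an intracellular inhibitor of serine proteases, best known for blocking those of neutrophil granules. Pmp2 encodes P2, a fatty acid binding protein of compact myelin that is most abundant in peripheral nerve and is also made in the spinal cord. Prr18 encodes a proline-rich protein transcribed in mature oligodendrocytes. Pdlim2 encodes a PDZ and LIM domain protein that, in mouse immune cells, targets the NF-kB subunit p65 and STAT4 for degradation.

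The values are probe set intensities, scaled so that all arrays share a median of 255.8, and log2 differences were taken after adding 25.6. The SC arrays stood apart in their correlation. No pair of arrays correlated less well on the log2 scale than they did (r = 0.965), and the 4 N-inv and PBS arrays correlated with one another at 0.981 to 0.984. For Actb, the 3' to 5' ratio that tracks RNA integrity was 3.32 and 3.42 for N-inv, 3.81 and 4.7 for SC, and 3.05 and 3.57 for PBS. For Gapdh that ratio was 3.12 and 3.38 for N-inv, 3.52 and 3.38 for SC, and 2.82 and 3.02 for PBS. The labels give all mice as male, yet Xist, which is transcribed from the silenced X chromosome of females, reached 13040 for SC replicate 2, with the remaining arrays spanning 138.3 to 228.1. Eif2s3y, a gene of the Y chromosome, was also highest in SC replicate 2, at 3147, and lowest in SC replicate 1, at 1342, with the N-inv and PBS arrays at 2365 to 2647. All 12 neuron and all 12 astrocyte marker genes listed for this work passed the filter. Over all genes, the median log2 difference from the PBS mean was -0.11 in SC replicate 1 and 0.08 in SC replicate 2. With quantile normalization these medians were 0.0 and 0.01. What part any of this has in the values below was not tested, so the readings of the 5 genes are given for both SC arrays. Medians of gene lists are given with an SC array left out in some cases only.

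In the subcutaneous tumour mice the mean intensity was 38.5% of the PBS mean for Serpinb1a, 42.0% for Pdlim2, 45.2% for Prr18, 45.8% for Klk6 and 18.1% for Pmp2. The median log2 difference between SC and PBS was -1.24 over the 5 genes and -0.02 over all genes tested. Both SC arrays lay below both PBS arrays in 5 of 5 genes, as the choice requires, and in 19.8% of all genes. The choice also excludes the opposite order, both SC arrays above both PBS arrays, which was found in 13.7% of all genes. Between N-inv and PBS the median log2 difference was -0.22 over the 5 genes and 0.04 over all genes.

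Serpinb1a showed the clearest separation. Its probe set 1416318_at read 5525 and 4726 in N-inv, 1576 and 1589 in SC, and 4333 and 3894 in PBS. The 3 groups did not overlap, with N-inv at the top and SC at the bottom. The log2 difference from the PBS mean was -1.37 for SC replicate 1 and -1.36 for SC replicate 2, and -1.23 and -1.41 with quantile normalization. The log2 difference between SC and PBS was -1.36 ± 0.17 (SE), and the gap between the highest SC and the lowest PBS array was 1.28 on the log2 scale. By that gap it ranked 1 among 12614 genes, which describes how it came to be chosen.

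The other Serpinb1a probe set, 1448301_s_at, was dimmer and did not meet the pattern. It read 858.3 and 720.4 in N-inv, 60.01 and 308.1 in SC, and 497.5 and 215.0 in PBS. SC replicate 2 thus lay between the PBS arrays, although N-inv was again highest and SC replicate 1 lowest. The suffix of this probe set marks probes that can match several related transcripts, so it may read relatives of Serpinb1a as well. Its log2 difference between SC and PBS was -1.07 ± 0.64 (SE). Of the 7 probe sets, 6 had both SC arrays below both PBS arrays, and this is the 1 that did not. Among those inside, the narrowest gap belonged to the dimmer Prr18 probe set, at 0.5 on the log2 scale.

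Klk6, the myelin-cleaving protease, read 3826 and 3270 in N-inv, 2437 and 1662 in SC, and 4727 and 4214 in PBS. The groups did not overlap here either, but N-inv lay between SC and PBS, not above PBS. The SC against PBS difference was -1.14 ± 0.22 (SE) on the log2 scale. The difference from the PBS mean was -0.87 for SC replicate 1 and -1.41 for SC replicate 2, and -0.73 and -1.47 with quantile normalization.

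Prr18 was read by a pair of probe sets. The brighter, 1435642_at, read 5549 and 4081 in N-inv, 2346 and 2363 in SC, and 5099 and 5312 in PBS. N-inv overlapped PBS, and both SC arrays stood below all of them. The difference from the PBS mean was -1.14 for SC replicate 1 and -1.13 for SC replicate 2, and -1.01 and -1.21 with quantile normalization. The dimmer, 1455392_at, read 3033 and 2329 in N-inv, 1877 and 1253 in SC, and 2674 and 2738 in PBS, with the same order of groups. The SC against PBS differences of these probe sets were -1.14 ± 0.19 and -0.81 ± 0.24 (SE) on the log2 scale. They disagreed most in SC replicate 1, whose difference from the PBS mean was -1.14 by the brighter probe set and -0.52 by the dimmer.

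The promoters of Klk6 and Prr18 are shown to let the letters before their starts be compared. Klk6 and Prr18 were taken because they are the 2 of the 5 genes with an entry in the promoter table. Each has a pair of annotated starts. The windows run from 250 bases before to 50 after each annotated start, come from RefSeq (GRCm38.p6) and are printed 5′ to 3′. Capitals mark matches, on either strand, to the motifs searched: CTGGNAC of MYRF, a factor that drives myelin genes, ACAAAG and AACAAT of the SOX family, which holds SOX10, CAGCTG of basic helix-loop-helix factors such as OLIG2, TATAAA of the TATA box and GGGCGG, the GC box.
Klk6, chr7:43824294-43824593, plus strand: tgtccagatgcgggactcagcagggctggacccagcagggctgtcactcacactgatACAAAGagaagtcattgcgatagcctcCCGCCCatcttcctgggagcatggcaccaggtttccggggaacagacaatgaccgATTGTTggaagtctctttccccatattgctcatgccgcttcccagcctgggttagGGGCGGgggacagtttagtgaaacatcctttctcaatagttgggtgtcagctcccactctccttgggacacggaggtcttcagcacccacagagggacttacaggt
Klk6, chr7:43825200-43825499, plus strand: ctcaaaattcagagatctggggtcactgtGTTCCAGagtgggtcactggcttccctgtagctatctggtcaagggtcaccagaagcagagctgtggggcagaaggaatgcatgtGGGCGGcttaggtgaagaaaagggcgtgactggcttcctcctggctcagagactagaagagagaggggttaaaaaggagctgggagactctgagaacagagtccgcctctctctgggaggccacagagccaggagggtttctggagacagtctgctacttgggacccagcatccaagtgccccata
Prr18, chr17:8340156-8340455, plus strand: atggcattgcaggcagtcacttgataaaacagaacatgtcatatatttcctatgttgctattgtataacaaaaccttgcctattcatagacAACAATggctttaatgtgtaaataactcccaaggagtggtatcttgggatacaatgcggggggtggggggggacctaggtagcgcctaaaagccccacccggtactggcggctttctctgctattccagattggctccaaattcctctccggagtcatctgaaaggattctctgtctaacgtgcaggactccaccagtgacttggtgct
Prr18, chr17:8340489-8340788, plus strand: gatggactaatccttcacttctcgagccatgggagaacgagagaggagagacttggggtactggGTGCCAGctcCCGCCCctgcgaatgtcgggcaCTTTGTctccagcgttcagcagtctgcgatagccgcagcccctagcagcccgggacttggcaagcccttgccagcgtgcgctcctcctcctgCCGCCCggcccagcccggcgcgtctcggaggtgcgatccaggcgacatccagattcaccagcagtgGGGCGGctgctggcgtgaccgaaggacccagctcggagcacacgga

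CTGGNAC was found in 2 of the 4 windows, that of the downstream start in each gene, against 19.3% of the 32851 windows of this length in the table. Counted from the start, the match began at -221 in Klk6 and at -186 in Prr18, on the minus strand in both. A SOX motif was found in the upstream window of each gene: ACAAAG and AACAAT in Klk6 and AACAAT in Prr18. The downstream Prr18 window held ACAAAG too. ACAAAG and AACAAT were thus each in 2 of the 4 windows, against 18.7% and 10.7% of all windows. The share of windows with either motif was not counted. GGGCGG was found in 3 of the 4 windows, against 35.7% of all windows, and CAGCTG and TATAAA, present in 16.3% and 13.6% of all windows, were found in none of the 4. The GC content was 55.7% and 55.3% in the Klk6 windows and 47.0% and 65.7% in the Prr18 windows, with a median of 52.7% over all windows. No match overlapped another in these windows, and a match is a description of the letters alone.

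Pdlim2, the PDZ and LIM domain protein, read 3093 and 2127 in N-inv, 1271 and 1233 in SC, and 3093 and 2876 in PBS. N-inv replicate 1 read the same as the higher PBS array and N-inv replicate 2 lay below both, while the SC arrays lay below all of these. The SC against PBS difference was -1.24 ± 0.21 (SE) on the log2 scale.

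Pmp2, the P2 myelin protein, was the dimmest of the brightest probe sets in the group and the most variable. It read 846.3 and 548.1 in N-inv, 375.1 and 35.45 in SC, and 929.9 and 1333 in PBS. The groups did not overlap, and SC replicate 2 was under the filter cutoff of 147.5. The log2 difference between SC and PBS was -2.87 ± 0.79 (SE), and it ranked 1 from the bottom among all genes. It was -1.51 from SC replicate 1 alone and -4.22 from SC replicate 2 alone, so its size rests on SC replicate 2, the array with the high Xist reading.

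**Figure D1:**
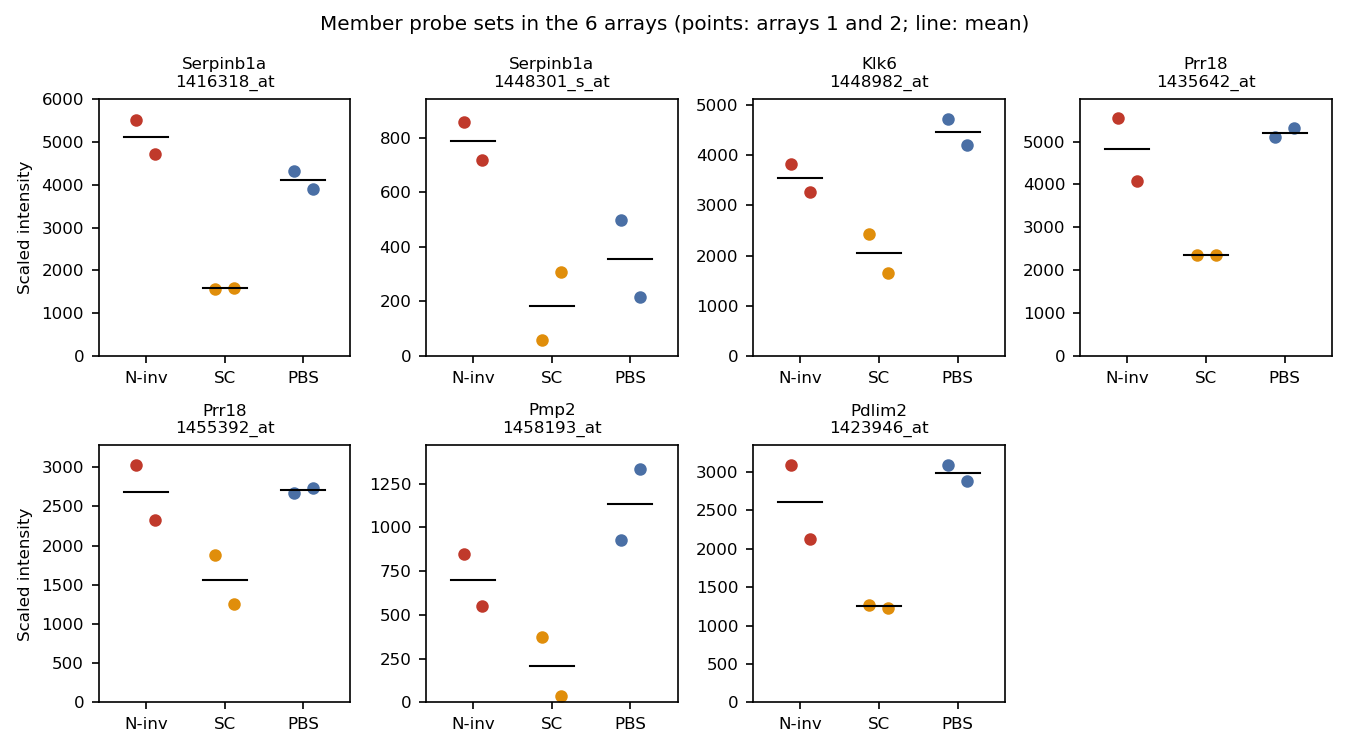
Scaled intensity (linear axis from 0) of the 7 probe sets of the 5 genes in N-inv, SC and PBS; points are single arrays and lines are means of 2 arrays. The SC points lie below the PBS points in all panels but that of 1448301_s_at, and the N-inv points lie above PBS for Serpinb1a and between SC and PBS for Klk6 and Pmp2.

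Over all genes the arrays of a group differed from each other by a median of 0.14 in N-inv, 0.29 in SC and 0.15 in PBS, on the log2 scale. By the brightest probe sets, the SC arrays differed by 0.01 for Serpinb1a and Prr18, 0.04 for Pdlim2, 0.55 for Klk6 and 2.71 for Pmp2. The small differences depend on the scaling and on the probe set. With quantile normalization SC replicate 2 was the lower array for all 5 genes, at -1.41 against -1.23 for SC replicate 1 in Serpinb1a, -1.21 against -1.01 in Prr18 and -1.29 against -1.08 in Pdlim2, each from the PBS mean. With the intensities as deposited the same 3 genes were at -1.44 and -1.25, -1.22 and -1.02, and -1.34 and -1.09. The dimmer probe sets of Serpinb1a and Prr18 differed by 1.96 and 0.574 between the SC arrays. Without SC replicate 2, the log2 difference between SC and PBS was -1.37 for Serpinb1a, -0.87 for Klk6, -1.14 for Prr18, -1.51 for Pmp2 and -1.21 for Pdlim2. The choice of the genes required each SC array to lie below PBS, so the signs of these differences carry no information. Their sizes are also affected by a choice made on the same arrays. By the gap between SC and PBS, Serpinb1a, Pmp2, Pdlim2, Prr18 and Klk6 ranked 1, 2, 3, 5 and 28 among 12614 genes.

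**Figure D2:**
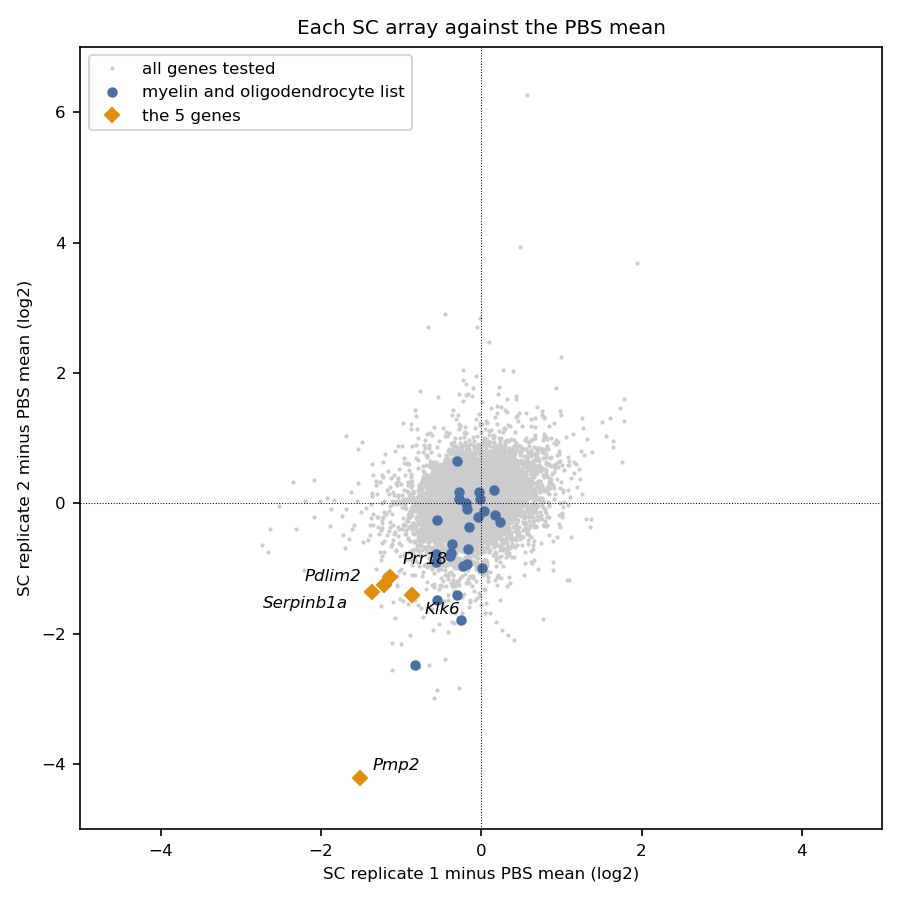
Log2 difference from the PBS mean in SC replicate 1 (horizontal axis) and SC replicate 2 (vertical axis) for all 12614 genes (grey), the myelin and oligodendrocyte list (blue) and the 5 genes (orange). The 5 genes lie in the lower left, with Serpinb1a, Prr18 and Pdlim2 near equal values on both axes under this scaling, though not with quantile normalization, and Pmp2 at -1.51 and -4.22; both axes share the PBS mean.

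The comparison of nerve tumour with vehicle bears on the N-inv arrays, which had no part in the choice of the genes, although the PBS arrays did. None of the 7 probe sets passed the test between N-inv and PBS in limma over 27022 probe sets (adjusted p = 1.0 for each, 0 of 7 at an unadjusted p under 0.05). Of all probe sets 0 passed in limma, which is 0.0%, the smallest adjusted p was 0.283, and 1097 had an unadjusted p under 0.05. The PBS arrays took part in the choice of the genes, so these values support nothing about them as a group. Serpinb1a was the 1 gene of the 5 with both N-inv arrays above both PBS arrays, at a log2 difference of 0.31 ± 0.17 (SE), and 25.2% of all genes had that order. Klk6 and Pmp2 had both N-inv arrays below both PBS arrays, at -0.33 ± 0.22 and -0.69 ± 0.79 (SE), as did 12.6% of all genes. Prr18 and Pdlim2 overlapped with PBS, at -0.13 ± 0.19 and -0.22 ± 0.21 (SE).

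The N-inv arrays also differed from each other in a common way. In each of the 5 genes, by its brightest probe set, N-inv replicate 2 read lower than N-inv replicate 1, as it did in 48.2% of all genes. The dimmer probe sets of Serpinb1a and Prr18 did so too, which makes 7 of 7 probe sets but repeats genes already counted. The difference between these arrays was 0.22 on the log2 scale for Serpinb1a, 0.23 for Klk6, 0.44 for Prr18, 0.54 for Pdlim2 and 0.6 for Pmp2. The median log2 difference of the 5 genes between N-inv and PBS was 0.05 without N-inv replicate 2 and -0.45 without N-inv replicate 1.

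Set against the subcutaneous tumour, both N-inv arrays lay above both SC arrays in 5 of 5 genes and in 25.4% of all genes. Since the SC arrays were chosen as low, nothing is read from that count. The log2 difference between N-inv and SC was 1.68 ± 0.17 for Serpinb1a, 0.81 ± 0.22 for Klk6, 1.01 ± 0.19 for Prr18, 2.18 ± 0.79 for Pmp2 and 1.02 ± 0.21 for Pdlim2 (SE). For Pmp2 it was 0.82 without SC replicate 2 and 3.53 without SC replicate 1, and for Klk6 0.53 and 1.08. In linear terms the N-inv mean was 3.24 times the SC mean for Serpinb1a. Comparisons of N-inv and of SC with PBS share the PBS arrays, and those of N-inv and PBS with SC share the SC arrays.

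Lists of cell type markers were read beside the group, each without the 5 genes, and described by counts only. Among genes of myelin and oligodendrocytes 27 of 30 were measured, of which 16 (59.3%) had both SC arrays below both PBS arrays and 1 had both above, against 19.8% and 13.7% of all genes. The list had a median log2 difference of -0.41 between SC and PBS, and it was -0.23 without SC replicate 2. Its lowest members were Opalin, a membrane protein of myelin paranodes, Sox10, a transcription factor of the lineage, Mog, a protein of the outer myelin surface, and Ugt8a, which makes myelin galactolipids. Opalin read 1933 and 1090 in N-inv, 898.3 and 266.5 in SC, and 1643 and 1586 in PBS. Sox10 read 3272 and 3905 in N-inv, 2799 and 943.1 in SC, and 3278 and 3391 in PBS. Mog read 3691 and 3120 in N-inv, 2464 and 1280 in SC, and 3801 and 3474 in PBS. In all of these SC replicate 2 was the lowest array. The summed intensity of the list was 380700 and 384700 in N-inv, 345200 and 336700 in SC, and 359400 and 378200 in PBS. This sum is weighted to a few very bright genes such as Mbp and Mobp, at log2 differences of 0.18 and 0.07 between SC and PBS. By contrast, 23 of the 27 genes were lower in SC. The part of this list in the values of the 5 genes was not tested. In bulk cord, fewer cells of a type and less RNA per cell cannot be told apart.

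Of 7 listed substrates and receptors of Klk6, 3 were measured, with 0 lower in SC and a median of 0.13. Both SC arrays lay below both PBS arrays in 0 of the 3, against 19.8% of all genes. They lay above in 2 of the 3, Mbp and App, or 66.7% against 13.7% of all genes. With 3 genes nothing is read from these counts. Mbp, myelin basic protein and a substrate of Klk6, read 75190 and 80060 in N-inv, 80500 and 83560 in SC, and 69490 and 75270 in PBS. Its SC arrays lay above both PBS arrays, at a log2 difference of 0.18 ± 0.15 (SE). The Mbp readings lie toward the top of the deposited range, which ends at 91322.1, and whether the signal is linear there was not tested. App, the amyloid precursor protein, and F2r, a protease-activated receptor, had log2 differences of 0.11 and 0.13. F2r overlapped between SC and PBS, at 5505 and 7648 in SC against 5449 and 6461 in PBS.

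Genes that accompany Klk6 in the same oligodendrocytes overlapped in most cases. Of 6 such genes, all measured, 1 had both SC arrays below both PBS arrays (16.7%, against 19.8% of all genes), and the median log2 difference was -0.06. Hopx, a homeodomain protein, read 6489 and 6596 in N-inv, 5459 and 7359 in SC, and 7192 and 7038 in PBS. Anxa5, a phospholipid binding protein, read 10630 and 10020 in N-inv, 10490 and 9773 in SC, and 9738 and 9814 in PBS. The SC and PBS arrays overlapped for both of these genes. Cd59a, which encodes a complement inhibitor, was the 1 gene below, at 3723 and 3682 in N-inv, 3163 and 3307 in SC, and 3355 and 3578 in PBS. Nkx2-9, a homeodomain factor, had the lowest value of the list at -0.79 ± 0.52 (SE), through a reading of 71.97 in SC replicate 2, and it overlapped with PBS as well.

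Among 9 genes of other mature oligodendrocyte types, 4 had both SC arrays below and 2 both above PBS, with a median of -0.09. The shares were 44.4% and 22.2%, against 19.8% and 13.7% of all genes. Il33, a nuclear cytokine of oligodendrocytes, read 4343 and 2868 in N-inv, 2264 and 1557 in SC, and 4697 and 4240 in PBS. Ptgds, a prostaglandin synthase of oligodendrocytes and meninges, read 30580 and 35000 in N-inv, 50240 and 57860 in SC, and 29580 and 29420 in PBS. Apod, a lipid carrier, likewise read higher in SC, at 42970 and 52290 against 28120 and 33020 in PBS. Genes of this cell class therefore lay on either side of the vehicle level. In newly formed oligodendrocytes 5 of 10 genes and in precursors 6 of 11 had both SC arrays below PBS, beside 19.8% of all genes. The median for newly formed cells was -0.27, with -0.32 when SC replicate 2 was left out and -0.09 when SC replicate 1 was. The median for precursors was -0.22, with -0.37 and -0.09 when the same arrays were left out. Gpr17, a receptor of cells about to mature, stood in both lists at -1.63 ± 0.34 (SE).

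Pmp2 is best known from Schwann cells, whose myelin covers the nerve roots that leave the cord, so the peripheral list was read beside it. Of 13 genes 10 were measured, of which 2 had both SC arrays below and 2 both above PBS. These are shares of 20.0% each, against 19.8% and 13.7% of all genes. The median log2 difference was 0.17, with 0.29 without SC replicate 2 and 0.1 without SC replicate 1. Ncmap, an adhesion protein of peripheral myelin, read 2202 and 2699 in N-inv, 2779 and 4352 in SC, and 2142 and 2291 in PBS. Drp2, which anchors Schwann cell membranes, read 2616 and 3815 in N-inv, 3537 and 3975 in SC, and 2439 and 2667 in PBS. Both SC arrays were above both PBS arrays for these genes, and below them for Pmp2. The summed intensity of the list was 54390 and 58720 in SC, against 51390 and 57900 in PBS.

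Neutrophil genes were read because Serpinb1a inhibits proteases of neutrophil granules. Of 12 genes 6 were measured, and Elane, Ctsg and Prtn3, the proteases themselves, were not among them. The median log2 difference between SC and PBS was 1.04, with 0 of 6 genes lower. Both SC arrays lay above both PBS arrays in 1 of the 6 (16.7%, against 13.7% of all genes). This was Lcn2, an iron-siderophore binding protein, which had the highest value at 2.82. Between N-inv and PBS, Lcn2 was higher, at 2.1, and the other 5 genes were lower. Of 5 proteases listed as inhibited by Serpinb1a, Casp1 alone passed the filter, at 0.27. The summed intensity was 1358 and 1442 in N-inv, 2939 and 6543 in SC, and 2970 and 864.7 in PBS, so PBS replicate 1 overlapped the SC range. Their part in the level of Serpinb1a was not tested.

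The remaining cell type lists had medians on either side of the vehicle level. The median log2 difference between SC and PBS was -0.03 for 12 astrocyte genes, with -0.32 without SC replicate 2 and 0.14 without SC replicate 1. It was -0.18 for 9 microglia genes and 0.18 without SC replicate 2, and 0.12 for 12 neuron genes and -0.06 without that array. For 10 endothelial and mural genes it was -0.07 and -0.23 without that array. For 11 genes of meningeal fibroblasts it was -0.32, with -0.14 without that array and -0.6 without SC replicate 1. Both SC arrays lay below both PBS arrays in 3 astrocyte, 2 microglia, 2 neuron, 2 endothelial and 5 meningeal genes. Of these shares the neuron list had the smallest, 16.7%, and the meningeal list the largest, 45.5%, against 19.8% of all genes. Both SC arrays lay above both PBS arrays in 2 astrocyte, 3 microglia, 2 neuron, 1 endothelial and 1 meningeal gene. For microglia that share was 33.3%, against 13.7% of all genes. The summed intensity of the meningeal list was 36240 and 31140 in SC, against 30640 and 38890 in PBS. The part of these cell types in the low values of the 5 genes was not tested.

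**Figure D3:**
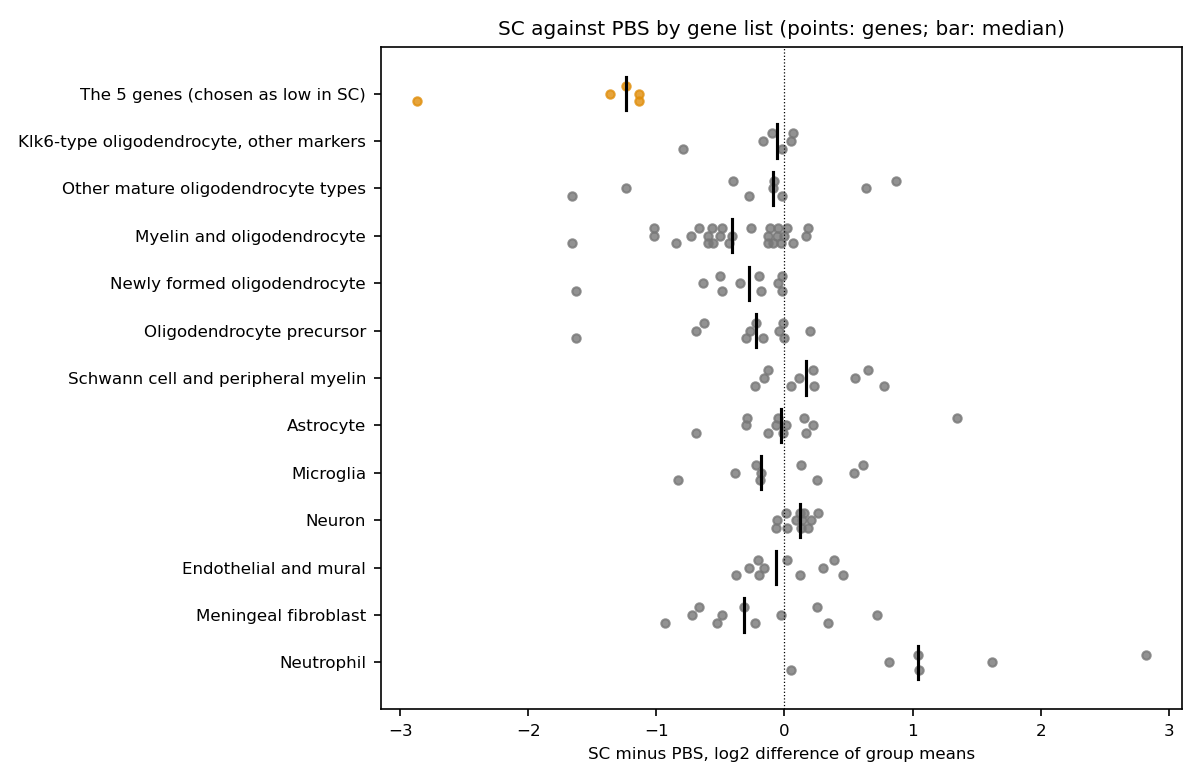
Log2 difference between the SC and PBS means (horizontal axis) for the 5 genes and for 12 cell type lists without them; points are genes and bars are medians. The 5 genes, chosen as low, lie at -1.14 or below, and the myelin and oligodendrocyte list has a median of -0.41 with genes spread from -1.66 to 0.18.

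Close relatives of the 5 genes were set beside them. Serpinb1b, a paralogue of Serpinb1a, read 7066 and 7368 in N-inv, 7465 and 8975 in SC, and 5838 and 7213 in PBS. Both SC arrays lay above both PBS arrays for Serpinb1b, at 0.33 ± 0.19 (SE), and below them for Serpinb1a. Near-identical copies can share probes, so the separation of these relatives on the array is uncertain. Of 16 other clade B serpins, Serpinb1b included, 4 were measured. Serpinb9 had both SC arrays below PBS, at 738.4 and 722.8 in SC against 746.7 and 904.5 in PBS, and the list median was -0.12.

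The relatives of Klk6 were dim. Of 12 other kallikreins Klk1 and Klk8 passed the filter, at log2 differences between SC and PBS of -0.24 ± 0.38 and -0.1 ± 0.33 (SE). Klk8, a protease of neurons, read 163.2 and 107.2 in N-inv, 111.0 and 218.3 in SC, and 204.9 and 141.3 in PBS, with all groups overlapping.

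In the PDZ and LIM family the other 5 measured genes had a median log2 difference of -0.04 between SC and PBS. Ldb3 was the 1 of them with both SC arrays below PBS (20.0%, against 19.8% of all genes), at 563.5 and 504.1 in SC against 582.9 and 839.5 in PBS. Pdlim7 read 2446 and 2462 in N-inv, 1646 and 1665 in SC, and 1605 and 1796 in PBS, so that N-inv stood above and SC within the vehicle range. Of 6 proteins that Pdlim2 acts on or binds 4 were measured, with a median of -0.07. Rela, which encodes p65, read 2445 and 3410 in N-inv, 2208 and 3124 in SC, and 2298 and 2619 in PBS. Relb, another NF-kB subunit, read 144.2 and 202.9 in SC against 251.9 and 235.9 in PBS, and Actn4, an actin crosslinker, read 3551 and 3514 in SC against 3819 and 4297 in PBS.

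Of 14 other intracellular lipid binding proteins 4 were measured, with a median of 0.02. Both SC arrays lay below both PBS arrays for Fabp7, the form of radial glia and astrocytes. It read 9483 and 5377 in N-inv, 4252 and 2942 in SC, and 5340 and 5521 in PBS, a log2 difference between SC and PBS of -0.61 ± 0.3 (SE). Fabp5, the gene next to Pmp2 on the chromosome, read 44640 and 40650 in N-inv, 34290 and 35670 in SC, and 38300 and 39800 in PBS, a difference of -0.16 ± 0.15 (SE). Fabp3, the form of heart muscle, read 2015 and 1973 in SC, against 1724 and 1746 in PBS. The family thus had members on either side of the vehicle level.

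**Figure D4:**
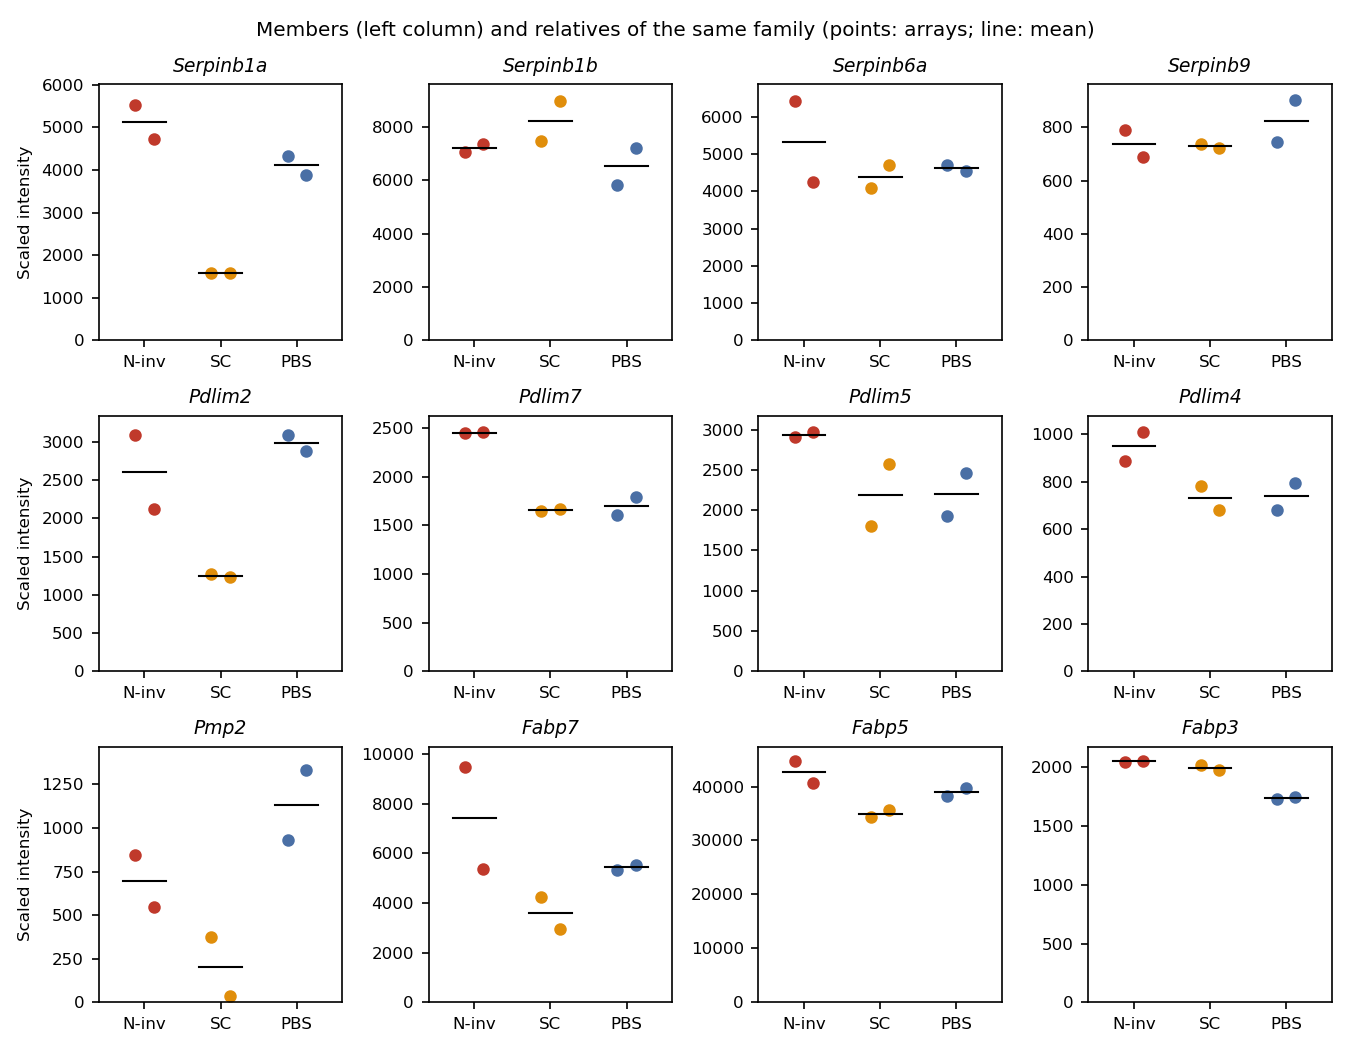
Scaled intensity (linear axis from 0) of Serpinb1a, Pdlim2 and Pmp2 in the left column and of 3 relatives of each beside them, in N-inv, SC and PBS; points are single arrays and lines are means of 2 arrays. Both SC points lie below both PBS points for Fabp7, Fabp5 and Serpinb9, above them for Serpinb1b and Fabp3, and overlap them in the other panels of relatives.

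The 3 protein-coding genes on either side of each of the 5 genes were looked up by their order in the RefSeq annotation, 30 in all, of which 17 were measured. Both SC arrays lay below both PBS arrays in 4 of the 17, beside 19.8% of all genes, namely Gmds and Serpinb9 near Serpinb1a, Fabp5 near Pmp2 and Ppp3cc near Pdlim2. Their log2 differences ranged from -0.39 to -0.16. None of the 3 measured genes near Prr18 had that order.

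The genes most like each of the 5 were found by the root mean square difference between log2 profiles over the 6 arrays, each centred on its own mean. This measure includes the SC and PBS arrays that defined the group, and all points share the same arrays. Prr18 and Pdlim2 were closest to each other, at 0.07, and Klk6 followed at 0.21 from Prr18 and 0.19 from Pdlim2. Serpinb1a stood 0.29 to 0.4 from these 3, and Pmp2 stood at least 1.0 from all of them. Klk6, Prr18 and Pdlim2 thus lay nearest together, with Serpinb1a and then Pmp2 farther off.

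Outside the group, Kcnip3, a calcium sensor of neurons, was nearest to Serpinb1a at 0.07. Kcnip3 read 874.0 and 808.0 in N-inv, 257.6 and 247.9 in SC, and 705.3 and 570.8 in PBS. It thus shared with Serpinb1a the order of N-inv above PBS above SC. Nell2 and Tmem138 came next, at 0.24 and 0.25. Il33 and Slc13a3, a dicarboxylate transporter, were nearest to Klk6, at 0.12 each, followed by Cemip at 0.14.

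Bcam, an adhesion receptor for laminin, was nearest to both Prr18 and Pdlim2, at 0.08 and 0.13. Bcam read 224.9 and 170.6 in N-inv, 99.96 and 98.21 in SC, and 213.7 and 236.6 in PBS, and its SC arrays were under the filter cutoff. Prrg1 and Ddah2 followed for Prr18, at 0.14 and 0.15, and Il33 and Prrg1 for Pdlim2, at 0.15 and 0.18. The nearest to Pmp2 were 5033404E19Rik, 4930506C21Rik and Steap3, at 0.51 to 0.6, and they read 9.948 to 37.25 in SC replicate 2.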

How the data were processed

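Per the labels' protocols, TRIzol was used to extract RNA of L1 cord, which was labelled with biotin in 2 cycles for Affymetrix 3' arrays. Each array has a column of deposited intensities on a linear scale, and the authors had scaled them, since their trimmed means are equal. How probes were summarised was not given in the sources used here. Of 45101 probe sets, 64 controls were left out. The platform annotation gave 1 symbol for 34945 probe sets, several for 932 and none for 9160, and only the first were named. Arrays were then brought to the same median, 255.8, before log2(intensity + 25.6), which understates changes of dim genes. Probe sets whose mean log2 value lay above the 40th percentile (intensity 147.5) were kept, 27022 in all, for 12614 genes, each represented by its brightest probe set.

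N-inv against PBS was tested two-sided by lmFit and eBayes of limma 3.58.1 (R 4.3.3) over all 6 arrays, with 3 residual degrees of freedom, a prior of 3.72 and Benjamini-Hochberg adjustment over all probe sets at 0.05. The standard errors of the other comparisons come from the same fit, and they carry no p because the SC arrays chose the genes. With 2 arrays a group, 0.333 is the smallest p of an exact permutation test, so none was used. The script was checked on data of known effects. Arrays have no read depth, and 2 per group limit the precision.

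The genes and the 19 gene lists, which share a few genes such as Opalin and Gpr17, were chosen with earlier results of these data known. All probe sets of the 5 genes are given. From each list up to 4 genes with the largest difference between SC and PBS were named, with relatives of the 5 genes, and the 3 nearest genes by profile. Hopx, Anxa5, Cd59a, the neighbouring genes and the genes passing only in alternatives were named after their values were seen. Alternatives were the pseudocount, the filter, the normalization, the arrays in the fit, an intensity trend, the replicate block, the probe set used and leaving out each array.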

Additional observations from a re-analysis of the deposited data

Results flagged for a closer look

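By its brighter probe set, 1416318_at, Serpinb1a lay on opposite sides of the vehicle level in the tumour groups. The dimmer, 1448301_s_at, did not meet this order. Its SC replicate 2 reading of 308.1 lay between the PBS arrays, at 497.5 and 215.0. By the brighter, both N-inv arrays were above both PBS arrays, as in 25.2% of all genes, with a log2 difference of 0.31. Both SC arrays were below them, with a log2 difference of -1.36. The SC side was fixed by the choice of the gene, both differences share the PBS arrays, and the contrast between the tumour groups was not tested. With a log2 SD of 0.11 within groups, the N-inv difference from PBS had an adjusted p of 1.0 in limma over all probe sets.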

How the results depend on the processing

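The log2 difference between SC and PBS was negative for each of the 5 genes in all 16 alternatives, and the median over the genes ranged from -1.36 to -1.1. The genes were chosen as low in SC, so this sign was largely fixed by the choice. Changing the filter, the trend, the groups in the fit or the N-inv arrays left that median at -1.24, since these settings hardly touch the SC and PBS values. Deviations of same-numbered arrays from their group means correlated at -0.03, 0.01 and 0.04 between groups, so the numbers were not taken as pairs. With the replicate block the SC against PBS median was -1.24, the N-inv against PBS median was -0.22, and 0 probe sets passed in N-inv against PBS. Between N-inv and SC the median ranged from 0.79 to 1.29 when single arrays were left out, and between N-inv and PBS from -0.45 to 0.05. In N-inv against PBS the number of probe sets that passed was 1 with only the groups compared (Sprr1a, adjusted p = 0.0415 in limma) and 1 with an intensity trend (Depp1, adjusted p = 0.0385 in limma). It lay between 0 and 1 with single arrays left out, Sprr1a passing without either SC array. Pmp2 ranged from -4.22 to -1.51 between SC and PBS, at -1.51 without SC replicate 2 and -4.22 without SC replicate 1. Klk6 ranged from -1.41 to -0.87 through the same arrays. The sign of the N-inv against PBS difference changed without N-inv replicate 2 for Prr18 and Pdlim2, to 0.09 and 0.05. A probe set near the cutoff, such as that of Pmp2 in SC, has no reliable size of difference. The gene list medians without 1 SC array were chosen after seeing the data. Of these, the SC against PBS median changed sign without SC replicate 1 for kallikreins (0.23), clade B serpins (0.15), astrocytes (0.14) and other markers of the Klk6 oligodendrocyte type (0.02), and without SC replicate 2 for microglia (0.18) and neurons (-0.06).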
